A study of Homo sapiens with 9 samples.

Results

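The EGF receptor family and its ligands were followed in the human PC3 line, which was derived from a bone metastasis of prostate cancer, through all probe sets annotated to EGFR, ERBB2, ERBB3, AREG, EREG, HBEGF, TGFA, BTC or NRG1. Of the 9 genes listed, 8 were found, with 34 probe sets of their own, and 27 of these were tested among 33970 on the array, which read 14863 genes by name. The annotation used here gives the symbol AREG to no probe set, so AREG was not analysed. RNA was measured on 9 Affymetrix Human Genome U133 Plus 2.0 arrays in 4 groups, each after 48 h of culture. Untreated PC3 cells were grown without osteoblasts (2 arrays). OB SostKO were PC3 cells below culture inserts that carried osteoblasts of Sost knockout mice (2 arrays). The other two groups had wild type mouse osteoblasts on the inserts and 100 ng/ml of recombinant human protein, either DKK1 (OB WT + rhDKK1, 2 arrays) or SOST (OB WT + rhSOST, 3 arrays). The osteoblasts were primary cells from the calvaria of mouse pups, and DKK1 and SOST (sclerostin) are secreted inhibitors of Wnt signaling. Wild type osteoblasts without added protein are not among the arrays, so the osteoblasts and the added protein cannot be told apart. PC3 is 1 line. Arrays of a group are labelled as biological replicates, with nothing said of separate cultures, so the p-values measure the spread between these arrays.

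EGFR, ERBB2 and ERBB3 are receptor tyrosine kinases of the cell surface that work in pairs. ERBB2 has no known ligand of its own, and ERBB3 has little kinase activity and signals through its partner. HBEGF (heparin-binding EGF-like growth factor), TGFA (transforming growth factor alpha), BTC (betacellulin) and EREG (epiregulin) are made as membrane proteins, are released by metalloproteases and bind EGFR. NRG1 (neuregulin 1) binds ERBB3. Activated receptors signal through RAS and ERK and through PI3 kinase, and prostate cancer cells often make both the receptors and the ligands.

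Epithelial markers were bright throughout. EPCAM, KRT8, KRT18 and CDH1, and with them the mesenchymal filament gene VIM, read between 11.59 and 13.47 on every array, on the log2 scale of the deposited values, and the prostate luminal genes KLK3, KLK2 and TMPRSS2 read between 4.90 and 7.34. Of 9 measured osteoblast markers 5 passed the filter and none of these was called. RUNX2 and COL1A1 read between 8.62 and 9.77 on the 9 arrays, and IBSP, ALPL and SPARC between 4.61 and 5.10. The mean of the 9 markers was 5.47 ± 0.09 (SD, n = 2) without osteoblasts and 5.43 ± 0.06 (SD, n = 7) with them. The osteoblasts were from mice and the arrays are made for human genes. How well these probe sets read mouse RNA is not known here, so the values cannot show whether osteoblast RNA was present. The untreated arrays stood apart in their preparation controls. The spiked poly-A controls, added to the RNA before labelling, read 10.42 ± 0.43 (SD, n = 2) there and 6.27 ± 0.25 (SD, n = 7) with osteoblasts (two-sided p = 0.0278 in an exact permutation test, which can give no smaller value here). The 3′ minus 5′ signal of ACTB averaged 0.69 ± 0.27 (SD, n = 2) without osteoblasts and 1.38 ± 0.33 (SD, n = 7) with them (exact permutation p = 0.0278). That of GAPDH did not differ beyond the spread, at 0.195 ± 0.065 (SD, n = 2) without and 0.201 ± 0.103 (SD, n = 7) with osteoblasts (exact permutation p = 0.917). The hybridization controls read 11.01 ± 0.48 (SD, n = 2) without osteoblasts and 10.44 ± 0.12 (SD, n = 7) with them (exact permutation p = 0.0278). The poly-A, hybridization and ACTB differences run along every comparison with untreated PC3 cells, and their part in the results was not tested.

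Probe sets below the 40th percentile on all arrays but 1, or on all, were not tested. This kept 27 of the 34 member probe sets. It left out 4 of the 6 NRG1 probe sets, 2 of the 3 of ERBB2 and 1 of the 2 of EREG, whose values lay between 2.61 and 5.12. A probe set counted as called at a Benjamini-Hochberg adjusted p under 0.05 in limma, adjusted over all 33970. Against untreated PC3 cells, OB SostKO had 2 member probe sets called lower, rhDKK1 had 3 and rhSOST had 2, and none was called higher. On the whole array, 0.718%, 0.721% and 1.32% of the tested probe sets were called lower in these comparisons and 0.901%, 1.03% and 2.66% were called higher. With the mean of the co-culture groups, 2 of the 27 were lower, beside 2.75% called lower and 4.44% called higher among all. Both of those read HBEGF. For OB SostKO, rhDKK1 and rhSOST in turn, the 27 had a median log2 difference of -0.09, -0.14 and -0.11, and that of all tested probe sets was -5e-04, -0.0035 and 0.0102.

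**Figure D1:**
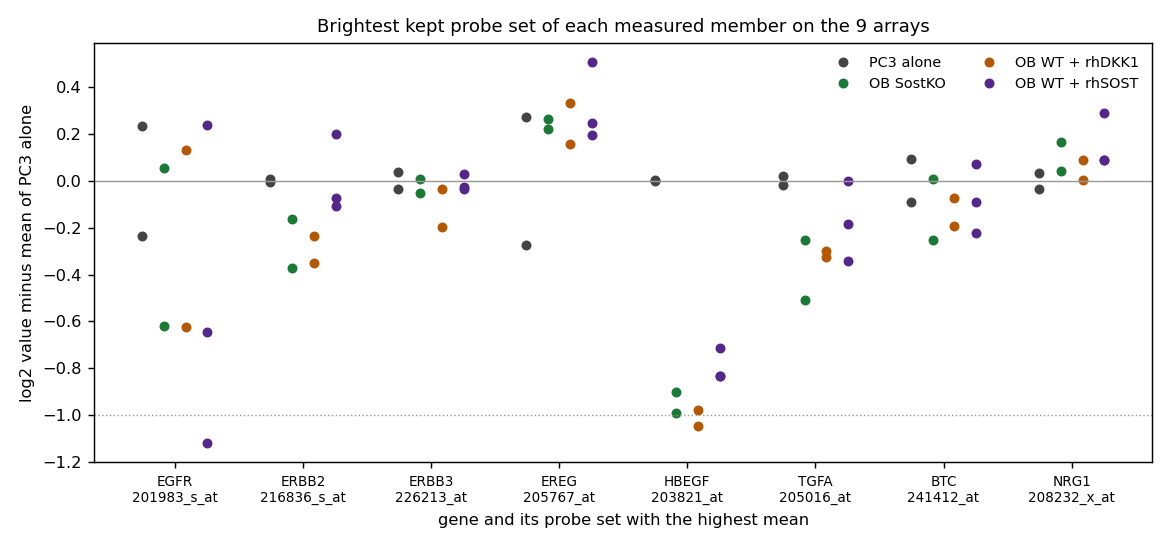
Values of each measured member at its probe set with the highest mean, on each of the 9 arrays (points), as the log2 value minus the mean of the untreated PC3 arrays; colours are groups and the dotted line marks -1. The HBEGF points of the 7 co-culture arrays lie apart from both untreated arrays, while the points of ERBB3 and BTC overlap between untreated and co-culture arrays.

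HBEGF, the ligand that also serves as the receptor of diphtheria toxin, was lower in all co-cultures. At probe set 203821_at its log2 value was 10.30 and 10.31 on the untreated arrays, 9.32 and 9.40 with OB SostKO, 9.33 and 9.26 with rhDKK1, and 9.47, 9.47 and 9.59 with rhSOST. All 7 co-culture arrays lay below both untreated arrays, and the nearest was rhSOST array 3. The log2 difference was -0.95 with OB SostKO (standard error 0.08, limma adjusted p = 0.00416), which is 1.93-fold lower with a 95% interval of 0.456 to 0.591 for the ratio. With rhDKK1 it was -1.01 (standard error 0.08, adjusted p = 0.00237), 2.01-fold lower. With rhSOST it was -0.79 (standard error 0.07, adjusted p = 0.00371), 1.73-fold lower.

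The other well detected HBEGF probe set, 38037_at, gave the same direction. It read 9.53 and 9.50 on the untreated arrays, 8.73 and 8.70 with OB SostKO, 8.65 and 8.59 with rhDKK1, and 8.70, 8.67 and 8.91 with rhSOST. The log2 differences were -0.80, -0.89 and -0.75 (adjusted p = 0.0128, 0.00897 and 0.00718). Again no co-culture array reached the untreated arrays. For 203821_at the call held without any of the 9 arrays in turn, with an adjusted p of at most 0.0468. For 38037_at the call with OB SostKO was lost without untreated array 1 or 2 and without OB SostKO array 1 or 2 (adjusted p up to 0.104). That with rhDKK1 was lost without untreated array 1 or 2 and without rhDKK1 array 1 or 2 (up to 0.0963), and that with rhSOST without untreated array 1 (0.0678). Fitted on the compared groups alone, 203821_at had adjusted p = 0.0577 with OB SostKO and 0.0589 with rhDKK1, which ends both calls, and 38037_at had 0.0655, 0.0639 and 0.0578 in the co-cultures, which ends all of its calls.

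A further pair of probe sets annotated to HBEGF did not show the fall. At 244857_at the values lay between 5.74 and 6.12 on the 9 arrays and at 222076_at between 4.58 and 4.95, and the groups overlapped at both. Their log2 differences ranged from -0.14 to 0.21, and none was called. The annotation used here lists no accession for them, so the transcript they read is not known here. The fall in HBEGF rests on the brighter pair, 203821_at and 38037_at.

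**Figure D2:**
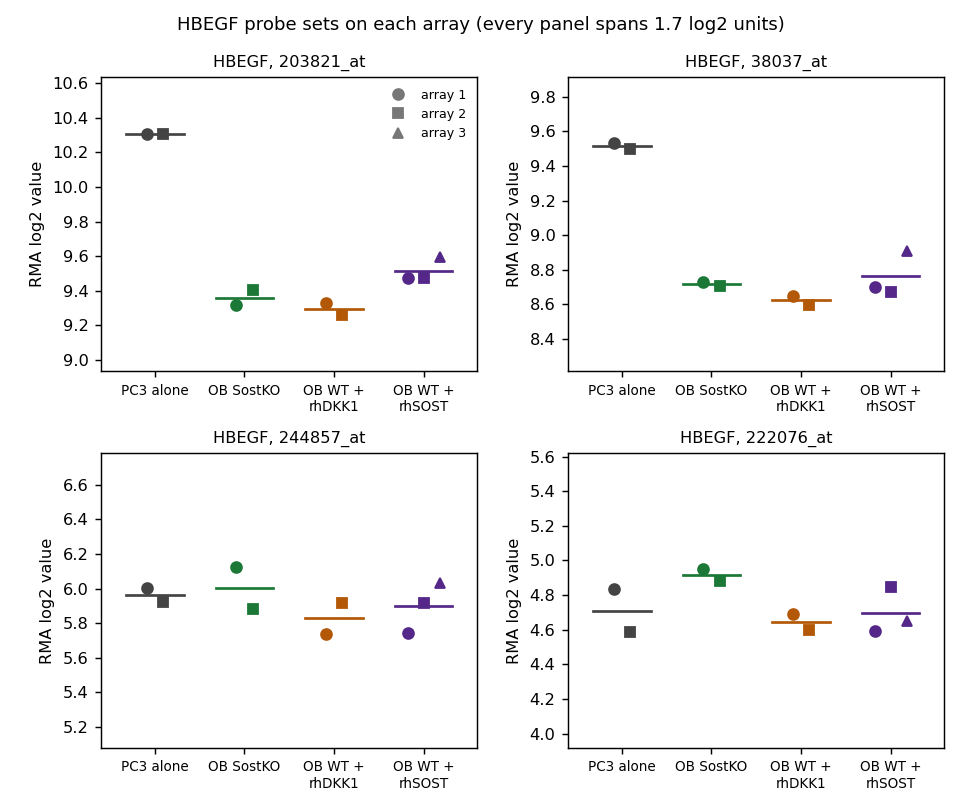
RMA log2 values of the 4 HBEGF probe sets on each array; points are arrays, their shape is the array number, lines are group means, and each panel spans 1.7 log2 units. In both upper panels the untreated arrays stand above all 7 co-culture arrays, and in the lower panels the groups overlap.

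The sequence before the start of HBEGF is shown beside that of TGFA, a ligand with a similar signal, because HBEGF was called in every co-culture and TGFA in none. Whether the change differs between these genes was not tested. Both sequences are RefSeq windows of GRCh38.p14 that end at the base before the annotated start, read 5′ to 3′ on the minus strand. They are chr5:140346604-140346853 for HBEGF and chr2:70553827-70554076 for TGFA. RefSeq gives TGFA a further start, and the TGFA window shown was picked because it holds a GC box. Capitals mark matches on either strand to the GC box (GGGCGG), the AP-1 site (TGANTCA), the core letters of the cAMP response element (TGACG), the TATA box (TATAAA) and the NF-kB motif.
HBEGF: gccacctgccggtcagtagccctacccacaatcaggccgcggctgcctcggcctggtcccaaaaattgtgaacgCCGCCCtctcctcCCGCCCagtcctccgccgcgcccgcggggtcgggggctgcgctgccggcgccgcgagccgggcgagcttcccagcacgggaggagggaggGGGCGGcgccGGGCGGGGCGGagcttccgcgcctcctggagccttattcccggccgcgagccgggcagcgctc
TGFA: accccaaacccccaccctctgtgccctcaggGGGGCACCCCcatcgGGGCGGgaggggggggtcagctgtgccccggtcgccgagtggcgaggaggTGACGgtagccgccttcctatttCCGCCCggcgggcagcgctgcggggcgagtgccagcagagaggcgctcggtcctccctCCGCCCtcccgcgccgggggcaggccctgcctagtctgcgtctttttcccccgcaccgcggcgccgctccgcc

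Both windows were rich in G and C, 76.4% for HBEGF and 75.6% for TGFA. The HBEGF window held 5 GC boxes, of which a pair share a base, and the TGFA window held 3. A GC box occurs in 42.6% of the 35116 RefSeq windows of this length. Neither window held the AP-1 letters (6.57% of windows) or the TATA box (10.7%). The TGFA window held 1 NF-kB match (9.96%) and 1 core of the cAMP response element (21.2%), and the HBEGF window held neither. The window of the other TGFA start, not shown, had 64% G and C and 0 GC boxes. It also had 0 NF-kB matches and 0 cores of the cAMP response element, so the TGFA counts depend on the start chosen. These matches describe letters in a window and not binding.

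TGFA was not called in any co-culture. At 205016_at it read 10.38 and 10.34 on the untreated arrays, 9.85 and 10.10 with OB SostKO, 10.06 and 10.03 with rhDKK1, and 10.02, 10.17 and 10.36 with rhSOST. The OB SostKO and rhDKK1 arrays lay below both untreated arrays, and rhSOST array 3 lay between them. The log2 differences were -0.38, -0.31 and -0.18 (adjusted p = 0.167, 0.240 and 0.435), with 95% intervals of -0.67 to -0.09, -0.60 to -0.02 and -0.44 to 0.09. A dimmer TGFA probe set, 205015_s_at, had -0.09, -0.15 and -0.18, and 211258_s_at had 0.24, 0.09 and 0.08, so the probe sets of TGFA differed in sign.

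EREG and BTC were not called in any co-culture. EREG, a ligand of inflammation and wound repair, was read by the single kept probe set 205767_at, at 5.23 and 5.78 on the untreated arrays and between 5.66 and 6.01 on the co-culture arrays. Untreated array 1 was the lowest of the 9 and untreated array 2 lay among the co-culture arrays. The log2 differences of 0.24, 0.25 and 0.32 had adjusted p between 0.320 and 0.500. BTC at 241412_at ranged from 7.52 to 7.87 over the 9 arrays, with log2 differences of -0.12, -0.14 and -0.08, and at 207326_at it had -0.18, -0.20 and -0.38 (adjusted p of at least 0.288 for both probe sets).

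NRG1 was close to the filter at its kept probe set 206237_s_at, and read between 5.90 and 6.23 at the other, 208232_x_at. At 206237_s_at it read 5.22 and 5.17 on the untreated arrays, 5.05 and 5.05 with OB SostKO, 4.75 and 4.86 with rhDKK1, and 5.12, 5.10 and 5.05 with rhSOST. The rhDKK1 arrays were the lowest of all, and the others lay just below the untreated arrays. The log2 difference with rhDKK1 was -0.40 (standard error 0.08, adjusted p = 0.0498), and with OB SostKO and rhSOST it was -0.15 and -0.11 (adjusted p = 0.344 and 0.425). The rhDKK1 call was lost in 18 of 21 alternative settings, among them leaving out any 1 array except rhSOST array 3. At the brighter NRG1 probe set, 208232_x_at, the differences were 0.10, 0.04 and 0.15 and none was called.

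**Figure D3:**
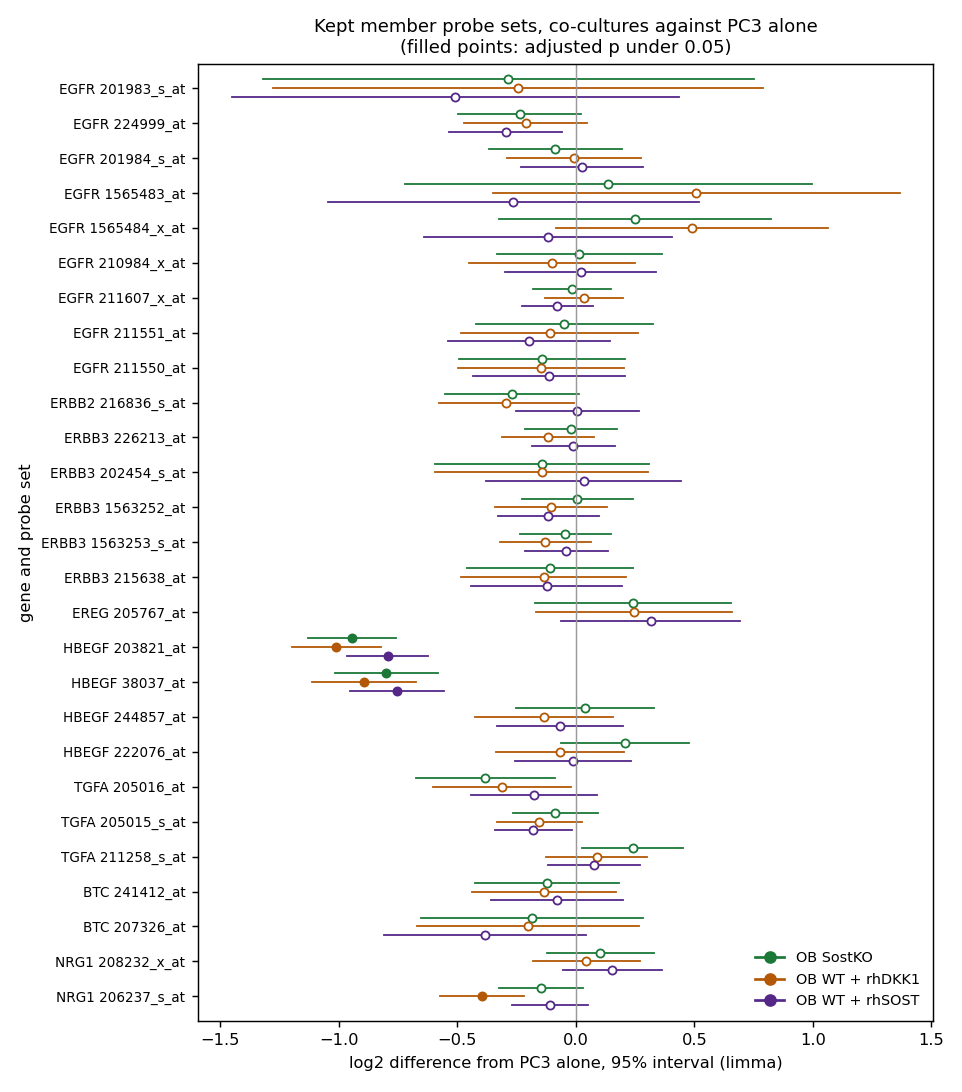
Log2 difference from untreated PC3 of each co-culture at the 27 kept member probe sets, with the 95% interval of the limma fit; filled points have an adjusted p under 0.05. The filled points are those of HBEGF 203821_at and 38037_at in all 3 co-cultures and of NRG1 206237_s_at with rhDKK1, and EGFR 201983_s_at and 1565483_at have the widest intervals.

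No receptor was called in any co-culture. EGFR was read by 9 kept probe sets, and the 3 brightest gave different pictures. At 224999_at it read 9.99 and 10.18 on the untreated arrays, 9.85 and 9.85 with OB SostKO, 9.98 and 9.76 with rhDKK1, and 9.91, 9.72 and 9.73 with rhSOST, so that rhDKK1 array 1 nearly reached the lower untreated array. The log2 differences were -0.24, -0.21 and -0.30 (standard error 0.11, 0.11 and 0.10, adjusted p = 0.303, 0.350 and 0.155). At 201984_s_at they were -0.09, -0.01 and 0.03. The 95% intervals at 224999_at reached down to -0.50, -0.47 and -0.53.

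At the EGFR probe set with the highest mean, 201983_s_at, arrays of the same co-culture differed by more than the group means did. It read 9.94 and 10.41 on the untreated arrays, 9.55 and 10.23 with OB SostKO, 10.31 and 9.55 with rhDKK1, and 10.41, 9.53 and 9.06 with rhSOST. In each group 1 array stood above 10.2: untreated array 2, OB SostKO array 2, rhDKK1 array 1 and rhSOST array 1. Its residual SD of 0.56 exceeded that of 98.8% of the tested probe sets, whose median was 0.12. The log2 differences of -0.28, -0.24 and -0.51 had standard errors of 0.45, 0.45 and 0.41. ERBB3 at 202454_s_at had the same array highest in the untreated, OB SostKO, rhDKK1 and rhSOST groups, at 7.98, 7.95, 7.84 and 7.97, over a range of 7.42 to 7.98. The same 4 arrays were also highest in their groups at EGFR 201984_s_at (9.32, 9.35, 9.39 and 9.39) and BTC 207326_at (6.59, 6.41, 6.32 and 6.23), but not at ERBB2 216836_s_at. The ACTB 3′ minus 5′ signal on those 4 arrays was 0.88, 1.32, 1.19 and 2.06 and on the other 5 arrays 0.50 to 1.44, and its part in the EGFR values was not tested.

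A dimmer pair of EGFR probe sets, 1565483_at and 1565484_x_at, both designed on the accession AF277897, also spread widely. At 1565483_at the rhDKK1 arrays read 6.59 and 7.42 and the rhSOST arrays 5.75, 6.14 and 6.80. The residual SD of these probe sets exceeded that of 97.8% and 94.1% of the tested ones. Their log2 differences went from -0.26 to 0.51, and the remaining 4 EGFR probe sets, with values between 4.87 and 6.31, had -0.20 to 0.03. None was called.

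**Figure D4:**
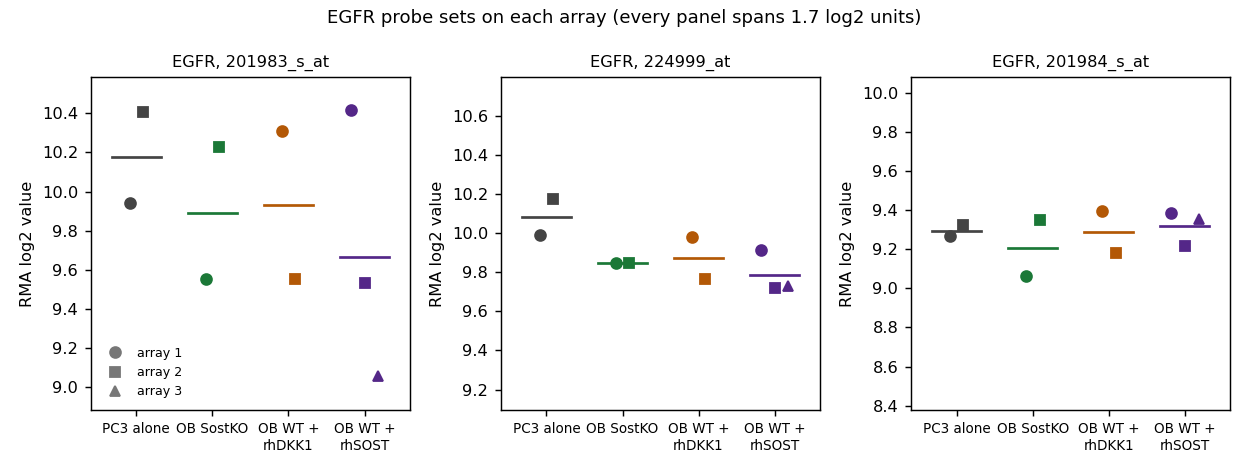
RMA log2 values of the 3 brightest EGFR probe sets on each array; points are arrays, their shape is the array number, lines are group means, and each panel spans 1.7 log2 units. At 201983_s_at 1 array of each group stands above 10.2, while at 201984_s_at all 9 arrays lie between 9.06 and 9.39.

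ERBB2, the partner receptor without a ligand, was read by 216836_s_at at 8.87 and 8.86 on the untreated arrays, 8.49 and 8.70 with OB SostKO, 8.63 and 8.51 with rhDKK1, and 8.79, 8.75 and 9.06 with rhSOST. The OB SostKO and rhDKK1 arrays lay below all untreated and rhSOST arrays. The log2 differences from untreated PC3 were -0.27, -0.29 and 0.01 (adjusted p = 0.286, 0.251 and 0.986). ERBB3 was the steadiest receptor at its brightest probe set, 226213_at, with 8.36 to 8.59 over the co-culture arrays, 8.52 and 8.60 on the untreated arrays, and log2 differences of -0.02, -0.12 and -0.01 (95% intervals within -0.31 to 0.17). Its 4 other probe sets had -0.14 to 0.03.

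Of the 27 tested member probe sets, 5 had every co-culture array below both untreated arrays, beside 10.6% of all tested probe sets. They were HBEGF 203821_at and 38037_at, EGFR 224999_at, TGFA 205015_s_at and NRG1 206237_s_at. No tested member probe set had every co-culture array above.

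The co-cultures were also compared directly. No member probe set was called in any of the 3 direct comparisons, where 0% of all tested probe sets were called for OB SostKO against rhSOST, for rhDKK1 against rhSOST and for OB SostKO against rhDKK1. At an unadjusted limma p under 0.05 there were 1, 4 and 2 of the 27 member probe sets, and 1165, 791 and 290 of all 33970. Each count among all is a smaller share than the 0.05 expected without any difference. For HBEGF 203821_at the levels ran from untreated PC3 (10.31) through rhSOST (9.51) and OB SostKO (9.36) to rhDKK1 (9.30). Neighbours within the co-cultures did not differ beyond their spread in the fit. OB SostKO minus rhSOST was -0.15 (95% interval -0.32 to 0.02, adjusted p = 0.843), and OB SostKO minus rhDKK1 was 0.06 (-0.12 to 0.25, adjusted p = 1). For the ends of that order, rhDKK1 minus rhSOST was -0.22 (-0.39 to -0.05, adjusted p = 1), and at 38037_at it was -0.14 (-0.34 to 0.06). At ERBB2, OB SostKO minus rhSOST was -0.28 (-0.53 to -0.02, adjusted p = 0.843) and rhDKK1 minus rhSOST was -0.30 (-0.56 to -0.04, adjusted p = 1). NRG1 206237_s_at had -0.29 for rhDKK1 minus rhSOST (-0.45 to -0.13, adjusted p = 1) and 0.25 for OB SostKO minus rhDKK1 (0.07 to 0.43, adjusted p = 1). The dimmer EGFR probe set 1565484_x_at ran the other way, with 0.61 for rhDKK1 minus rhSOST (0.08 to 1.13, adjusted p = 1). HBEGF 222076_at, the dimmest of its gene, had 0.27 for OB SostKO minus rhDKK1 (0.0044 to 0.54, adjusted p = 1). Missing the threshold does not show that these levels are alike.

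Other genes of the pathway were taken from 5 lists and read at the brightest kept probe set of each gene in the same fit, as the mean of the co-culture groups minus untreated PC3. Among all 14863 genes, 2.79% were called lower and 4.74% higher, with a median log2 difference of -0.0039. Of the rest of the family, ERBB4, EGF and NRG2 had kept probe sets and none was called (the smallest p were those of EGF, 0.14, adjusted p = 0.345, and NRG2, -0.12, adjusted p = 0.450). Of 15 genes of ligand shedding 1 was lower and none higher (median -0.02). It was the metalloprotease ADAM19, at -0.63 (standard error 0.14, adjusted p = 0.0347). ADAM17, the main sheddase of HBEGF and TGFA, had -0.08 (adjusted p = 0.514). The ADAM19 call was lost without either untreated array, either rhDKK1 array or rhSOST array 1 or 2.

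Of 21 measured adaptors and kinases below the receptors, 2 were higher and none lower (median 0.04). PIK3R1, the regulatory subunit of PI3 kinase, had 0.47 (standard error 0.08, adjusted p = 0.0189), and the docking protein GAB2 had 0.31 (standard error 0.07, adjusted p = 0.0372). Neither was called without untreated array 1 or 2 or without rhDKK1 array 1 or 2, and the count was 1 without OB SostKO array 1 or 2 or rhSOST array 1 or 2. Of 21 inhibitors and genes of receptor down-regulation, 2 were lower and 1 higher (median -0.02). ERRFI1, which binds and inhibits EGFR and is itself induced by its signaling, fell in every co-culture, by 0.47 on the log2 scale with OB SostKO, by 0.44 with rhDKK1 and by 0.43 with rhSOST (adjusted p = 0.0317, 0.0328 and 0.0188). SPRY2, a feedback inhibitor of the ERK cascade, had -0.44 and LRIG2, a transmembrane protein of a family that restrains receptors, had 0.46 (adjusted p = 0.0161 and 0.0286). The count of 2 lower became 0 without untreated array 1 and 1 without untreated array 2. The 1 higher gene became 0 without untreated array 1, OB SostKO array 2, rhDKK1 array 1 or 2 or rhSOST array 2, and 2 without untreated array 2 or rhSOST array 3.

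Of 21 measured genes that ERK signaling can induce, 7 were lower and none higher (median -0.12). This list, like the others, was chosen with earlier results of these data known. Those with the smallest p were IL6 (-1.88), the phosphatase DUSP1 (-0.77), the chemokine CXCL8 (-0.57) and the transcription factor FOS (-0.55), with standard errors of 0.07 to 0.10 and adjusted p = 0.000268, 0.00212, 0.0091 and 0.0120. These genes also respond to other pathways. The 7 became 2 without untreated array 1 and 3 without untreated array 2, and the count of higher genes became 1 without rhSOST array 3. HBEGF and all of these lists were read against the same pair of untreated arrays, with their poly-A signal 4.15 above that of the co-cultures.

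The genes most like HBEGF 203821_at over the 9 arrays, by Pearson's r at the brightest probe set of each gene, were KLF6 (0.99), PDGFB (0.99), NFKBIZ (0.99), PHB2 (0.99) and ULBP2 (0.99). KLF6 and NFKBIZ had log2 differences of -0.77 and -0.93 for the mean of the co-culture groups minus untreated PC3. The 9 arrays are dominated here by the gap between untreated and co-culture arrays. Over the 7 co-culture arrays alone the list was another one, with SNORA72, OPLAH, LOC100129034, ARSA and ABTB1 (r from 0.997 to 0.980). Among receptors the probe set with the smallest p for the mean of the co-culture groups minus untreated PC3 was EGFR 224999_at, and the genes most like it over the 9 arrays were TNFRSF1B, EID2, ALDH3A2, B4GALNT4 and PEX3 (r from 0.96 to 0.91). Over the 7 co-culture arrays they were KIAA1143, EXT1, SCAMP2, HOXC8 and XXYLT1 (0.99 to 0.97). With so few arrays, such values are a description of these arrays.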

How the data were processed

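RNA from PC3 cells was measured on 9 arrays, whose 4 groups come from the sample titles. The authors deposited log2 values from RMA, a method taken from the submitters' processing notes, and the program that ran it is not given in the sources used here. After 62 controls were removed from the 54675 probe sets, the filter (2 or more arrays at or above the 40th percentile of that array) left 33970. Of these, 28244 carry 1 symbol, 1307 several and 4419 none in the platform annotation; symbols were updated to RefSeq. Group means were fitted over all 9 arrays with lmFit and eBayes in R 4.3.3 and limma 3.58.1 (8.00 degrees of freedom), for 7 comparisons with Benjamini-Hochberg adjustment over all kept probe sets. Members and lists were chosen with earlier results of these data known. All member probe sets are described, singly or within a range of values. From each list the 4 called genes with the smallest p are named, or 2 where none was called. ADAM17 was added after its value was seen. Of the genes measured by several probe sets, the brightest on average stands for its gene in the lists. The fit was tested on simulated data whose noise was independent between arrays. Those data held no preparation difference between untreated and co-culture arrays, so the simulation does not cover it. The number of arrays limits the precision. The alternatives were other filters, cyclic loess, 1 value a gene, the compared groups alone, a replicate block, array weights, an intensity trend, other thresholds, the methods' ANOVA with Tukey's comparisons and paired test, and leaving out each array.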

Additional observations from a re-analysis of the deposited data

How the results depend on the processing

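Counts are of member genes called lower than untreated PC3, which were 1 for OB SostKO, 2 for rhDKK1, 1 for rhSOST and 1 for the mean of the co-culture groups, and a direction was read only from called values. The 2 genes with rhDKK1 became 1 with no filter, a 60th percentile filter, cyclic loess, the brightest probe set or the mean of the probe sets of each gene, an intensity trend and the replicate block, and 1 to 2 with an array left out. Fitted on the compared groups alone, the counts were 0 for OB SostKO, 0 for rhDKK1 and 1 for rhSOST. With a fold of at least 2 added, at an adjusted or an unadjusted p, they were 0 for OB SostKO, 1 for rhDKK1, 0 for rhSOST and 0 for the mean, and the 7 lower genes of the ERK list became 1. The methods' ANOVA with Tukey's comparisons gave 2 with rhSOST, 2 lower and 1 higher for rhDKK1 minus rhSOST and 1 higher for OB SostKO minus rhDKK1, and 0 in all after Benjamini-Hochberg adjustment. The methods' paired test gave 3 lower and 1 higher with OB SostKO, 2 lower with rhSOST, 1 higher for OB SostKO minus rhSOST and 1 higher for OB SostKO minus rhDKK1, and 0 after adjustment. No called value changed its sign. At HBEGF 203821_at the log2 difference lay between -0.99 and -0.90 with OB SostKO, -1.04 and -0.98 with rhDKK1 and -0.84 and -0.77 with rhSOST in all alternatives. Same-numbered arrays did not consistently deviate together. The correlations ran from -0.54 (OB SostKO and rhDKK1) to 0.43 (rhDKK1 and rhSOST, array 1). Where both groups had 2 arrays, arrays 1 and 2 gave the same value, because deviations from a mean of 2 mirror each other. The replicate block left HBEGF called in each co-culture (adjusted p = 0.0128, 0.0126 and 0.0162 at 203821_at) and lost no call but that of NRG1 among the members. Where leaving out an array left 1 in its group, that array was assumed to vary like the other groups.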
